A study of Arabidopsis thaliana with 24 samples.

Results

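The genes described here are 45 loci of *Arabidopsis thaliana* that are known to rise when oxygen is low. They fall into 6 genes of fermentation and carbon metabolism, 9 of oxygen sensing, transcription and haemoglobin, 7 of ethylene, reactive oxygen and calcium signalling, 12 for other enzymes, transporters and proteins with known domains, and 11 for proteins without an assigned role. The list was drawn from general knowledge of the low-oxygen response, without the sucrose synthase genes. It was drawn up after *SUS4*, a sucrose synthase gene, had been seen to stand far higher in replicate 3 than in replicates 1 and 2 of 3 genotypes (*tt19-8*, S2 and S8). All 45 loci were among the 33331 gene identifiers of the count files, and all 45 passed the filter on low counts that left 22089 genes for testing. Because that view of replicate 3 led to the list, values of *tt19-8*, S2 and S8 are given as a description. Tests are read for S1, S4, S5 and S7 against Col-0. The list was, however, chosen with earlier results of these data known, and *SUS4* was itself higher in S4 than in Col-0, as given below. Counts of members called in S4 are therefore not independent of that choice.

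When oxygen runs short, mitochondrial respiration slows and plant cells rely on glycolysis, which needs a supply of oxidised NAD. Pyruvate decarboxylase (PDC) and alcohol dehydrogenase (ADH) provide it by turning pyruvate into ethanol. The switch is run by group VII ethylene response factors, whose proteins start with methionine and cysteine: plant cysteine oxidases (PCO) oxidise the cysteine while oxygen is present, which sends the factor to degradation along the N-degron pathway, and the factor persists when oxygen is low. Members of the list are known as the genes that these factors switch on in flooded roots and submerged seedlings, among them *PCO1* and *PCO2*, which feed back on the pathway.

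Reads came from the RNA of whole seedlings of 8 genotypes with 3 libraries each, 24 in all. S1, S2, S4, S5, S7 and S8 are suppressor lines that regained anthocyanin pigment after EMS mutagenesis of *tt19-8*. By the study's account, *RDR6* is hit by a premature stop in S1, S2 and S8 and by an amino acid substitution in S4, whereas splicing is altered for *SGS3* in S5 and for *DCL4* in S7; all of these genes act in the making of small interfering RNAs. *tt19-8* is a T-DNA insertion mutant of *TT19*, a glutathione S-transferase gene needed for anthocyanin accumulation, and Col-0 is its wild type. Seedlings of every genotype, Col-0 included, were kept for 4 days in anthocyanin inductive conditions (AIC), shaken in medium with 3% sucrose and lit for 24 h a day. All suppressor lines also carry the *tt19-8* insertion, so that their differences from Col-0 join that insertion and the suppressor mutation. Each suppressor line goes back to 1 EMS isolate, so that other mutations may have come along, and no label says that replicates were separate cultures. The p-values given here therefore measure the spread between these libraries, which may be technical.

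An element made of the letters AAACCA, any 3 bases and GC was searched for on both strands from 250 bases before to 50 bases after the annotated start site of each gene, because promoters of *ADH1* and of other low-oxygen genes are known for AAACCA elements. The letters occurred in 8 of 45 members (17.8%) and in 286 of 27443 promoter windows of the same length over all genes (1.04%). Because the element was chosen for being known from such genes, its higher share among the members is a description and no test. The shorter AAACCA, which lies inside them, occurred in 23 members (51.1%) against 32% of all windows, CACGTG in 5 (11.1%) against 7.68%, and TATAAA in 24 (53.3%) against 52.1%. A match is a description of the letters and not a site known to be used. The windows that hold the element are shown with it in capitals, from the RefSeq TAIR10.1 genome and 5′ to 3′ on the strand of the gene; *PCO1* holds its reverse complement. The first 3 are the 250 bases upstream of *ADH1* (chr1:28975005-28975254, plus strand), *NIP2;1* (chr2:14515989-14516238, minus strand) and AT4G10270 (chr4:6374484-6374733, plus strand).
ADH1: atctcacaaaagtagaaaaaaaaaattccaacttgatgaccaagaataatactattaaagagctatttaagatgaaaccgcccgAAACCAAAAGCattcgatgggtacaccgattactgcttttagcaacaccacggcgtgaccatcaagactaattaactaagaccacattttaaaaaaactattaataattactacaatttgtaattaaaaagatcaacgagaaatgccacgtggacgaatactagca
NIP2;1: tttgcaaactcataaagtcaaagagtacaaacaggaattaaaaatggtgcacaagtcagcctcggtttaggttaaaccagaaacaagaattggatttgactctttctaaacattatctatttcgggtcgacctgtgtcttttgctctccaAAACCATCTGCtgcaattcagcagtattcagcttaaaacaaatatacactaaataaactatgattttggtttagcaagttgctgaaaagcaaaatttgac
AT4G10270: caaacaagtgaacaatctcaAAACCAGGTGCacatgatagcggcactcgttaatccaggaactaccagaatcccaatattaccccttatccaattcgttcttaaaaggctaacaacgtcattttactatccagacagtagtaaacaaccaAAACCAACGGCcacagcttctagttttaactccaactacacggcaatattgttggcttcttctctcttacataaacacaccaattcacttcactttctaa

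In *ADH1* the element began 166 bases before the start site, in *NIP2;1* 100 bases before it, and AT4G10270 held copies 230 and 100 bases before it. In the other 5 members the letters lay within the first 50 transcribed bases, and 30 bases around them are shown for *PCO1* (chr5:4898641-4898670, plus strand), AT3G27220 (chr3:10053732-10053761, minus strand), AT4G10265 (chr4:6373635-6373664, minus strand), *PFK6* (chr4:15848503-15848532, minus strand) and AT1G26270 (chr1:9092511-9092540, minus strand). AT3G27220 held copies that began at transcribed bases 10 and 40, and the first is shown.
PCO1: aaaagaatgGCCCCTGGTTTtgtaatcgat
AT3G27220: caaaattggAAACCACCGGCgtgatttctg
AT4G10265: gaaaccaagaAAACCAGCAGCtacaaaacc
PFK6: cggaaattgacaaaaggaaAAACCAGCCGC
AT1G26270: aaccatggttagttttAAACCACTTGCttg

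The coding sequence of 3 of the 45 members (6.67%) placed cysteine directly after the first methionine, against 239 of 27389 protein-coding genes (0.873%). They were the group VII factors *HRE1* (AT1G72360) and *HRE2* (AT2G47520), and AT4G24110. Group VII factors are known by this start, so that *HRE1* and *HRE2* follow from the choice of members. The shares are therefore no test. Their first 10 codons are shown because this start is the part of a group VII factor that a cysteine oxidase reads. Whether such an oxidase reads the AT4G24110 protein was not tested. The capitals mark the cysteine codon.
HRE1: atgTGCggaggagctgtaatttccgattac
HRE2: atgTGTgggggagctatcatttctgatttc
AT4G24110: atgTGTaggtcgcccgatttcgagcgttat

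Library totals were 25827059 to 73443869 counts, and no member had fewer than 5 counts in any library. The lowest was AT5G10040 in Col-0 replicate 3, and the highest was *ADH1* with 231596 counts. *TT19* was at 1.84 to 11.6 CPM in the 6 suppressor lines and at 0.936 to 1.54 CPM in *tt19-8*, against 125 to 133 CPM in Col-0. CPM are counts relative to the library total, scaled by trimmed mean of M-values. Every line labelled *tt19-8* thus lay below Col-0. The suppressor lines lay above *tt19-8*, with S7 at 10.7 to 11.6 CPM, and the cause was not tested. Replicates of a genotype differed by 3.35 to 25.7 times sampling noise over 24 pairs, so that none was a second copy of another. In bulk seedlings, fewer cells of a type and less RNA per cell cannot be told apart. Marker lists moved between genotypes too, and the part they have in the results was not tested. Seed storage transcripts (*CRA1*, *SESA3*, *SESA4*, *OLEO1*) summed to 4003 to 4149 CPM in S1, 1457 to 1514 in S4, 554 to 1461 in S5 and 312 to 575 in S7, against 46.1 to 109 CPM in Col-0. Root markers (*COBL9*, *EXP7*, *SHR*, *CASP1*, *PHO1*) summed to 283 to 305 CPM in S1, 1355 to 1421 in S4, 776 to 796 in S5 and 288 to 375 in S7, against 506 to 589 CPM in Col-0. Green-tissue markers (*RBCS1A*, *RBCS3B*, *LHCB1.3*, *LHCA1*) summed to 133 to 139 CPM in S1, 103 to 115 in S4, 145 to 185 in S5 and 310 to 413 in S7, against 185 to 209 CPM in Col-0. Of the 4 seed storage genes, 4 were called higher in S1, S4 and S5 and 2 in S7. Of the 5 root markers, 3 were called lower in S1 and 2 in S7, 1 was higher and 1 lower in S5, and 2 were higher and 1 lower in S4. Of the 4 green-tissue markers, 1 was called lower in S1, 3 were lower in S4, 1 was higher and 1 lower in S5, and 4 were higher in S7. The guard cell markers *FAMA* and *MYB60* summed to at most 15.3 CPM in any library, and no marker of these lists was at 0.

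Among the members, transcript levels per length ranged widely. In TPM, a level per transcript length scaled to the same sum in each library and computed with RefSeq exon lengths, 44 of 45 members averaged at least 10 TPM over the 24 libraries and 23 at least 100 TPM. *ADH1*, the alcohol dehydrogenase, had the highest mean at 1718 TPM, ahead of AT4G27450 (a protein with YGL and LRDR motifs) at 646 TPM, *PDC1* at 505 TPM, *SAD6* (an acyl carrier protein desaturase) at 475 TPM and AT4G39675 at 391 TPM. The lowest was *ACHT5*, an atypical thioredoxin, at 1.41 TPM. By genotype, *ADH1* averaged 3685 TPM in S4, 2213 in S8, 1631 in S7, 1523 in S2, 867 in S5, 598 in S1 and 2384 in *tt19-8*, against 840 TPM in Col-0. In CPM the S2, S7, S8 and *tt19-8* libraries of *ADH1* overlapped each other, as did those of S5 and Col-0, while all S4 libraries lay above all Col-0, S1, S2, S5 and S7 libraries.

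Most members moved alike over the libraries, and some did not, as the r values given below describe. The ratio of the highest to the lowest library had a median of 6.09 over the 45 members, from 1.90 for *PFK6* (a phosphofructokinase) to 684 for AT5G10040, and 14 members passed 10-fold while 12 stayed under 3-fold. The highest library was *tt19-8* replicate 3 for 22 members and S8 replicate 3 for 14. Both libraries are among those that led to the list, so that their high ranks are a description. The lowest library was an S1 library for 23 members. No shares over all genes are given beside the counts of libraries in this paragraph. Among the 4 highest libraries of each member, *tt19-8* replicate 3 appeared for 41 members, S4 replicate 1 for 33, S8 replicate 3 for 31, S4 replicate 2 for 27 and S4 replicate 3 for 26.

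**Figure D1:**
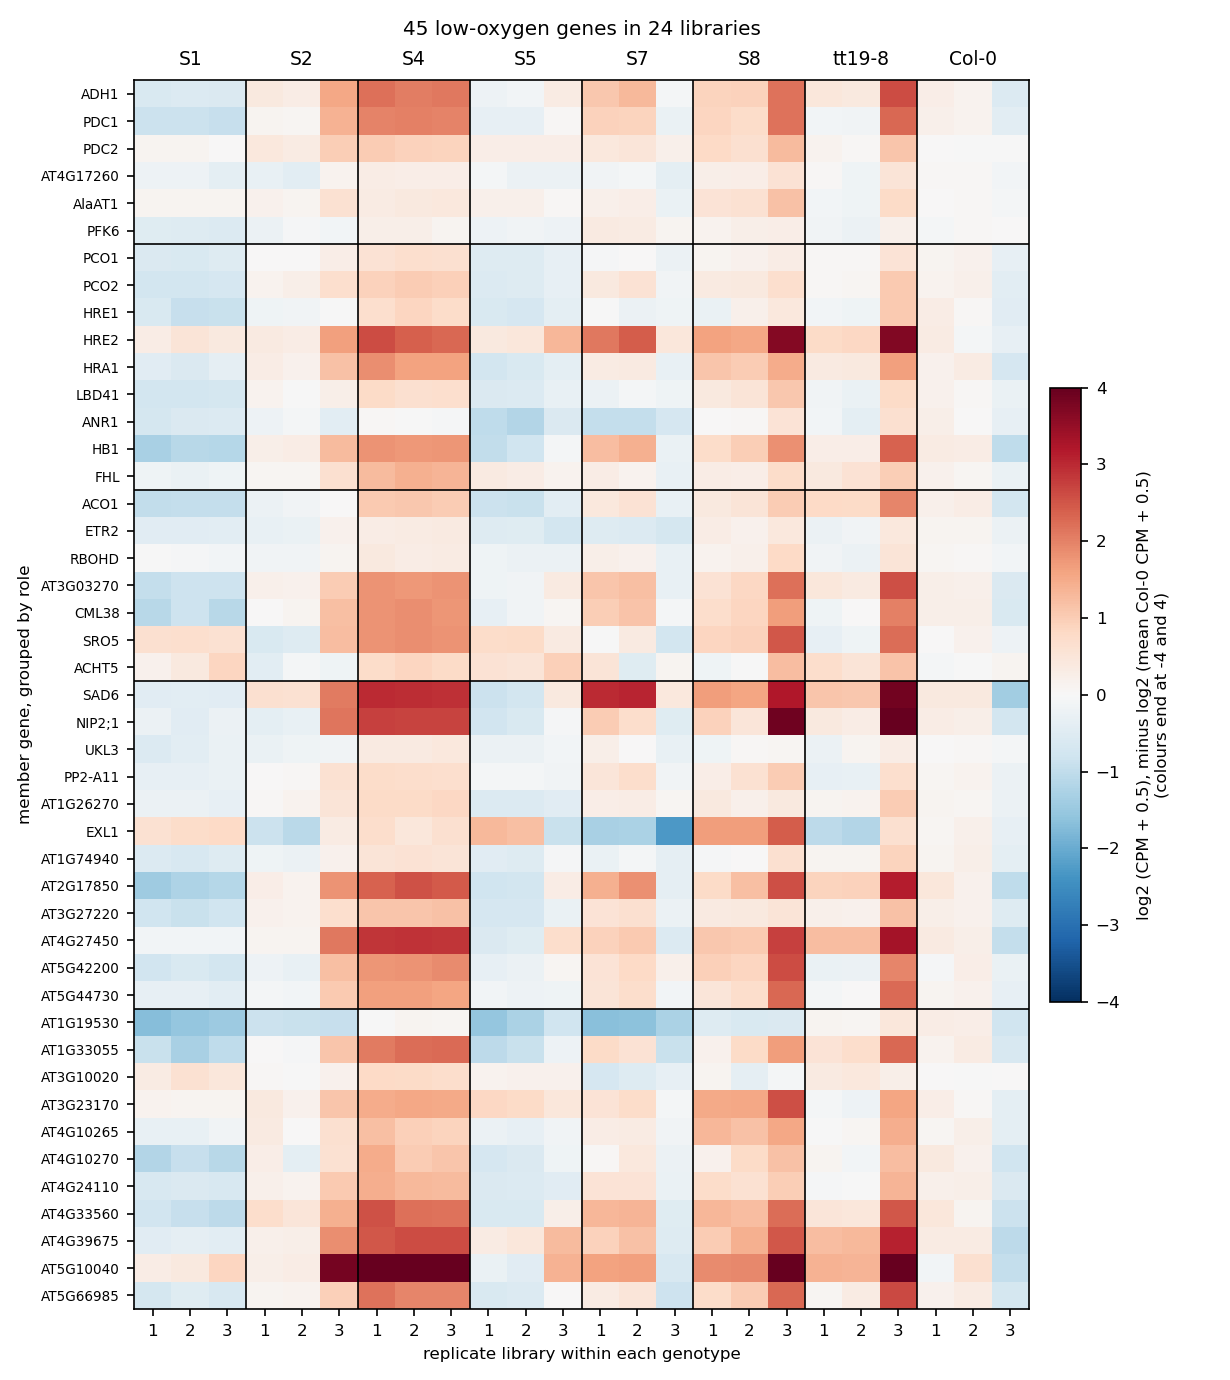
Level of each of the 45 members (rows, grouped by role) in each of the 24 libraries (columns, replicates 1 to 3 within a genotype), as log2 of CPM plus 0.5 minus the log2 of the Col-0 mean plus 0.5; red is above and blue below Col-0, and colours end at -4 and 4. The 3 S4 columns are red throughout most rows, replicate 3 of *tt19-8*, S2 and S8 is redder than replicates 1 and 2 beside it, and the S1 columns are pale or blue.

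Of the fermentation genes, *ADH1* and *PDC1* followed this pattern. *ADH1* stood at 498, 518 and 517 CPM in S1, 998, 938 and 2211 in S2, 3523, 3173 and 3328 in S4, 670.0, 701 and 962 in S5, 1621, 1865 and 722 in S7, 1406, 1445 and 3467 in S8. It stood at 1043, 1003 and 4706 CPM in *tt19-8*, against 920.4, 848 and 523 CPM in Col-0. The S4 libraries, *tt19-8* replicate 3 and S8 replicate 3 were the high ones, and S4 and Col-0 did not overlap. *PDC1*, which makes the acetaldehyde that ADH reduces, was at 195, 193 and 188 CPM in S1, 381, 375 and 935 in S2, 1414, 1427 and 1410.2 in S4, 283, 284 and 366 in S5, 667, 666 and 292 in S7, 641, 587 and 1592 in S8. Its other libraries were at 331, 322 and 1733 CPM in *tt19-8*, against 409.7, 391 and 264 CPM in Col-0. The order of the libraries was nearly that of *ADH1*, with S1 lowest.

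Against Col-0, *ADH1* rose in S4 by a log2 fold change of 2.13 ± 0.50 (adjusted p = 0.00177), *PDC1* by 2.00 ± 0.52 (adjusted p = 0.00398) and *PDC2*, the other pyruvate decarboxylase gene of the list, by 0.94 ± 0.21 (adjusted p = 0.00109), with edgeR's quasi-likelihood test and Benjamini-Hochberg adjustment over all genes tested, as for every adjusted p given here. The other 3 genes of the group did not pass the test in S4. AT4G17260, the lactate dehydrogenase gene, was at 0.27 (adjusted p = 0.14), *AlaAT1*, which makes alanine from pyruvate, at 0.39 (0.116) and *PFK6* at 0.21 (0.0993). In the fit without replicate 3 of *tt19-8*, S2 and S8, these 3 passed the test as well, at 0.28, 0.40 and 0.22 (adjusted p = 0.0108, 0.00141 and 0.0455 for AT4G17260, *AlaAT1* and *PFK6*), so that all 6 were called there. Those libraries belong to neither S4 nor Col-0 and enter this contrast through the shared estimate of the spread and the scaling. *PDC1* shares 86.6% of its bases with *PDC3* over the length that aligned, so that reads could be split between them.

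In S4 as a whole, 37 of 45 members were called higher and 0 lower against Col-0, where 42.9% of all genes tested were called in either direction and 20.6% were called higher. The median log2 fold change was 1.23 over the members and -0.01 over all genes, and 27 of the 37 passed 2-fold. All 3 S4 libraries lay above all 3 Col-0 libraries for 43 members, against 30% of all genes, and below for 0. By role, 3 of 6 fermentation genes, 8 of 9 for oxygen sensing and transcription, 5 of 7 for ethylene, reactive oxygen and calcium, 11 of 12 other enzymes and domains and 10 of 11 without a role rose. Beside these calls in S4 stood the marker lists given above; of the root markers, *PHO1* was at 1211, 1257 and 1281 CPM in S4 and 358, 363 and 265 CPM in Col-0, and the endodermal *CASP1* at 95.3, 89.0 and 93.8 CPM in S4 and 194, 184 and 195 CPM in Col-0. Without Col-0 replicate 3, 31 members were called, without replicate 3 of *tt19-8*, S2 and S8 42 (all higher, beside 48.8% of all genes), and 31 members were called in every one of 13 fits at the same threshold that gave them an adjusted p. DESeq2 gave no adjusted p for *SAD6*, *NIP2;1* and AT5G10040.

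**Figure D2:**
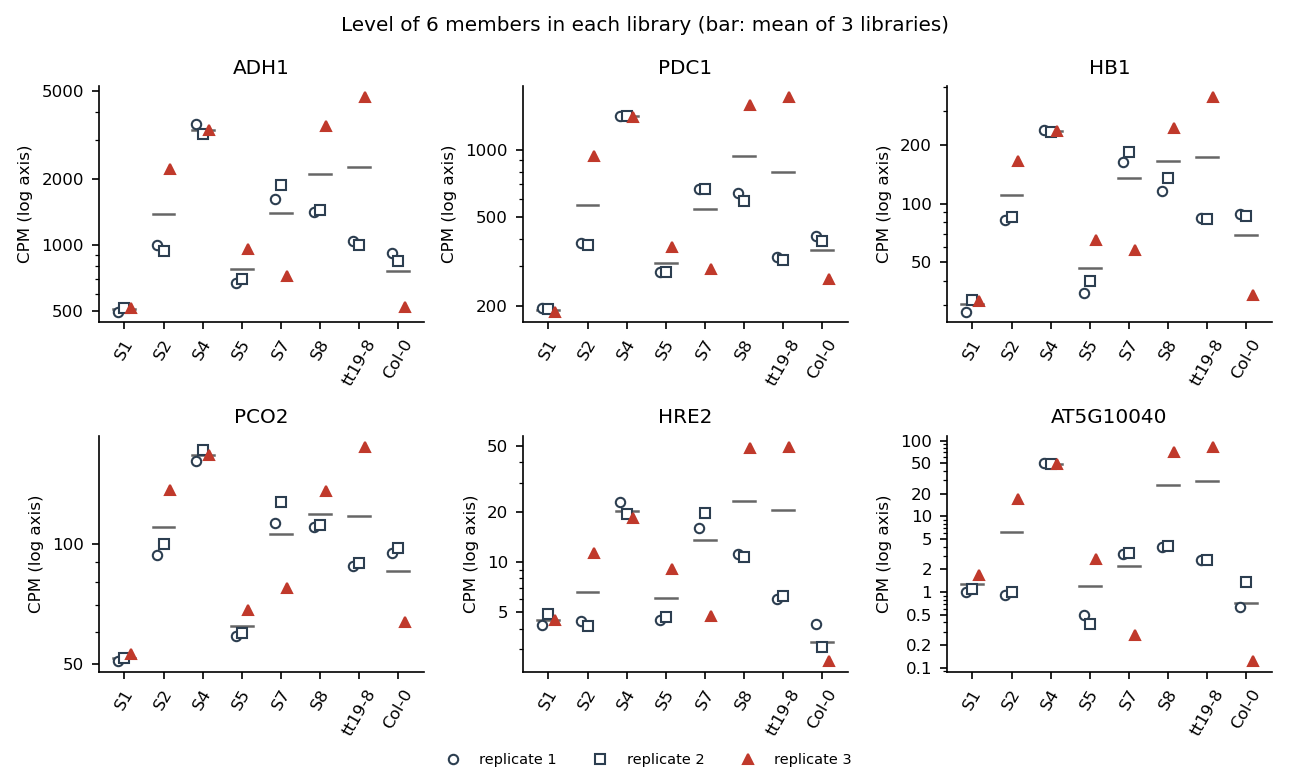
CPM on a log axis of 6 members in each library of the 8 genotypes (circle, square and triangle for replicates 1, 2 and 3; bar for the mean of 3 libraries). The 3 S4 points sit close together and above all Col-0 points in each panel, while in *tt19-8*, S2 and S8 the triangle sits above the circle and the square.

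The oxygen-sensing genes were next in order. *PCO1* and *PCO2* encode cysteine oxidases whose transcripts rise at low oxygen. *PCO1* was at 52.1, 51.5 and 54.9 CPM in S1, 80.3, 79.9 and 94.1 in S2, 119, 126 and 122 in S4, 55.4, 54.5 and 62.4 in S5, 76.3, 80.1 and 66.3 in S7, 85.7, 88.8 and 96.1 in S8, 81.6, 81.6 and 116 in *tt19-8* and 85.3, 88.7 and 61.8 in Col-0. *PCO2* was at 50.7, 51.5 and 52.9 CPM in S1, 93.5, 99.9 and 136 in S2, 161, 172 and 167 in S4, 58.8, 59.7 and 68.2 in S5, 113, 128 and 77.5 in S7, 110.1, 111 and 135 in S8, 87.7, 89.6 and 175 in *tt19-8* and 94.7, 97.5 and 63.7 in Col-0. S4 was above Col-0 in every library for both genes, and every S1 library was below every Col-0 library. In S4, *PCO1* rose by 0.64 ± 0.13 (adjusted p = 0.000457) and *PCO2* by 0.96 ± 0.22 (adjusted p = 0.00134). In S1, *PCO1* fell by 0.57 on the log2 scale (adjusted p = 0.00137) and *PCO2* fell by 0.72 (adjusted p = 0.0129; 0.0537 without Col-0 replicate 1 and 0.0609 without Col-0 replicate 2). In S5, *PCO1* fell by 0.45 (adjusted p = 0.0123; 0.0798 without Col-0 replicate 2, 0.0608 without Col-0 replicate 1 and 0.0521 without S5 replicate 2).

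*HRE1* and *HRE2* are the group VII factors whose transcripts themselves respond to low oxygen, and their coding starts stand above. *HRE1* was at 8.96, 7.08 and 7.26 CPM in S1, 12.2, 12.4 and 13.6 in S2, 22.4, 25.5 and 23.3 in S4, 8.83, 8.49 and 10.3 in S5, 13.6, 11.7 and 12.1 in S7, 11.3, 16 and 18.7 in S8, 12.7, 12.1 and 28.8 in *tt19-8* and 17.0, 14.4 and 9.98 in Col-0. *HRE2* was at 4.17, 4.90 and 4.47 CPM in S1, 4.41, 4.15 and 11.3 in S2, 22.8, 19.4 and 18.3 in S4, 4.52, 4.69 and 9.06 in S5, 16.1, 19.8 and 4.73 in S7, 11.1, 10.7 and 48.1 in S8, 6.0, 6.24 and 49.4 in *tt19-8* and 4.28, 3.08 and 2.54 in Col-0. *HRE1* was high in S4 and *tt19-8* replicate 3 and lowest in S1, whereas the S1 libraries of *HRE2* lay within or above those of Col-0. *HRE2* rose in S4 by 2.61 ± 0.72 (adjusted p = 0.00634) and in S7 by 2.01 ± 0.72 (adjusted p = 0.0297), although S7 replicate 3 stood at 4.73 CPM beside 16.1 and 19.8 CPM in replicates 1 and 2. The S7 call was lost without S7 replicate 1, S7 replicate 2, Col-0 replicate 2 or Col-0 replicate 3 (adjusted p = 0.0782, 0.115, 0.0804 and 0.0898). *HRE1* rose in S4 by 0.78 ± 0.24 (adjusted p = 0.013), or 0.60 without Col-0 replicate 3 (adjusted p = 0.0777), and fell in S1 by 0.83 (adjusted p = 0.0123), or by 0.65 without Col-0 replicate 1 (adjusted p = 0.0771).

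*HRA1*, a trihelix factor that restrains the group VII factor RAP2.12, was at 29.1, 26.9 and 31.0 CPM in S1, 49.9, 45.2 and 91.4 in S2, 147, 124 and 124 in S4, 24.1, 26.0 and 30.7 in S5, 50.3, 51.8 and 32.7 in S7, 88.3, 81.3 and 115 in S8, 52.3, 52.9 and 127 in *tt19-8* and 45.6, 50.2 and 25.2 in Col-0. *LBD41*, a LOB-domain factor, was at 86.8, 85.3 and 88.2 CPM in S1, 159.6, 142 and 167 in S2, 244, 225 and 229 in S4, 96.1, 97.7 and 116 in S5, 122, 136 and 126 in S7, 189, 207 and 307 in S8, 130.4, 119 and 246 in *tt19-8* and 162, 149 and 119.9 in Col-0. *HB1*, a class 1 haemoglobin that scavenges nitric oxide, was at 27.7, 31.7 and 31.3 CPM in S1, 82.4, 84.8 and 167 in S2, 239.5, 233 and 237 in S4, 34.5, 40.0 and 65.0 in S5, 164, 185 and 57.8 in S7, 117, 136 and 246 in S8, 84.1, 83.2 and 355 in *tt19-8* and 88.0, 86.0 and 33.8 in Col-0. All 3 genes were high in S4, and *HB1* differed most between genotypes, with S1 at the bottom. In S4, *HRA1* rose by 1.70 ± 0.31 (adjusted p = 0.000182), *LBD41* by 0.70 ± 0.20 (adjusted p = 0.00718) and *HB1* by 1.77 ± 0.50 (adjusted p = 0.00734). *LBD41* fell by 0.73 in S1 (adjusted p = 0.00651). *HB1* in S1 was at -1.20 ± 0.50 (adjusted p = 0.0661), which missed the threshold of 0.05, although its S1 libraries all lay below its Col-0 libraries.

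The other genes of this group went different ways. *FHL*, a partner of phytochrome A in far-red signalling, rose in S4 by 1.38 ± 0.18 (adjusted p = 3.81e-06). *ANR1*, a MADS-box factor of nitrate-dependent root branching, was at -0.00027 on the log2 scale in S4, and fell by 0.63 in S1 (adjusted p = 0.0259), fell by 0.94 in S5 (0.00333) and fell by 0.89 in S7 (0.00263). The *ANR1* call in S1 did not hold without any S1 library, Col-0 replicate 1 or Col-0 replicate 2 (adjusted p from 0.0513 to 0.129).

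In the ethylene, reactive oxygen and calcium group, 5 of 7 members rose in S4. *ACO1*, which makes the last step of ethylene synthesis, rose by 1.05 ± 0.28 (adjusted p = 0.00497) and AT3G03270 (HRU1), a universal stress protein tied to hydrogen peroxide production, by 1.79 ± 0.50 (adjusted p = 0.00645). The calmodulin-like *CML38* rose by 1.81 ± 0.46 (adjusted p = 0.00314), *SRO5* by 1.85 ± 0.57 (adjusted p = 0.0123) and *ACHT5* by 1.10 ± 0.41 (adjusted p = 0.0363). The *ACHT5* call, at 1.93 ± 0.12 CPM in S4 and 0.901 ± 0.092 CPM in Col-0 (SD, n = 3 each), did not hold without any 1 of the 6 libraries (adjusted p from 0.0612 to 0.1). The ethylene receptor *ETR2* was at 0.33 in S4 (adjusted p = 0.0639) and the NADPH oxidase *RBOHD* at 0.33 (0.126). *ETR2* fell by 0.45 in S1, fell by 0.58 in S5 and fell by 0.59 in S7 (adjusted p = 0.0176, 0.00489 and 0.0024); in S1 the call was lost without S1 replicate 1, Col-0 replicate 1 or Col-0 replicate 2 (adjusted p = 0.0507, 0.0696 and 0.0718). *ACO1* fell by 0.97 in S1 (adjusted p = 0.0107, or 0.0604 without Col-0 replicate 2). An exonic stretch of *SRO5*, 45.5% of its length, overlaps AT5G62530 on the other strand, and whether counting used strand is not stated, so that reads of both genes cannot be told apart there.

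**Figure D3:**
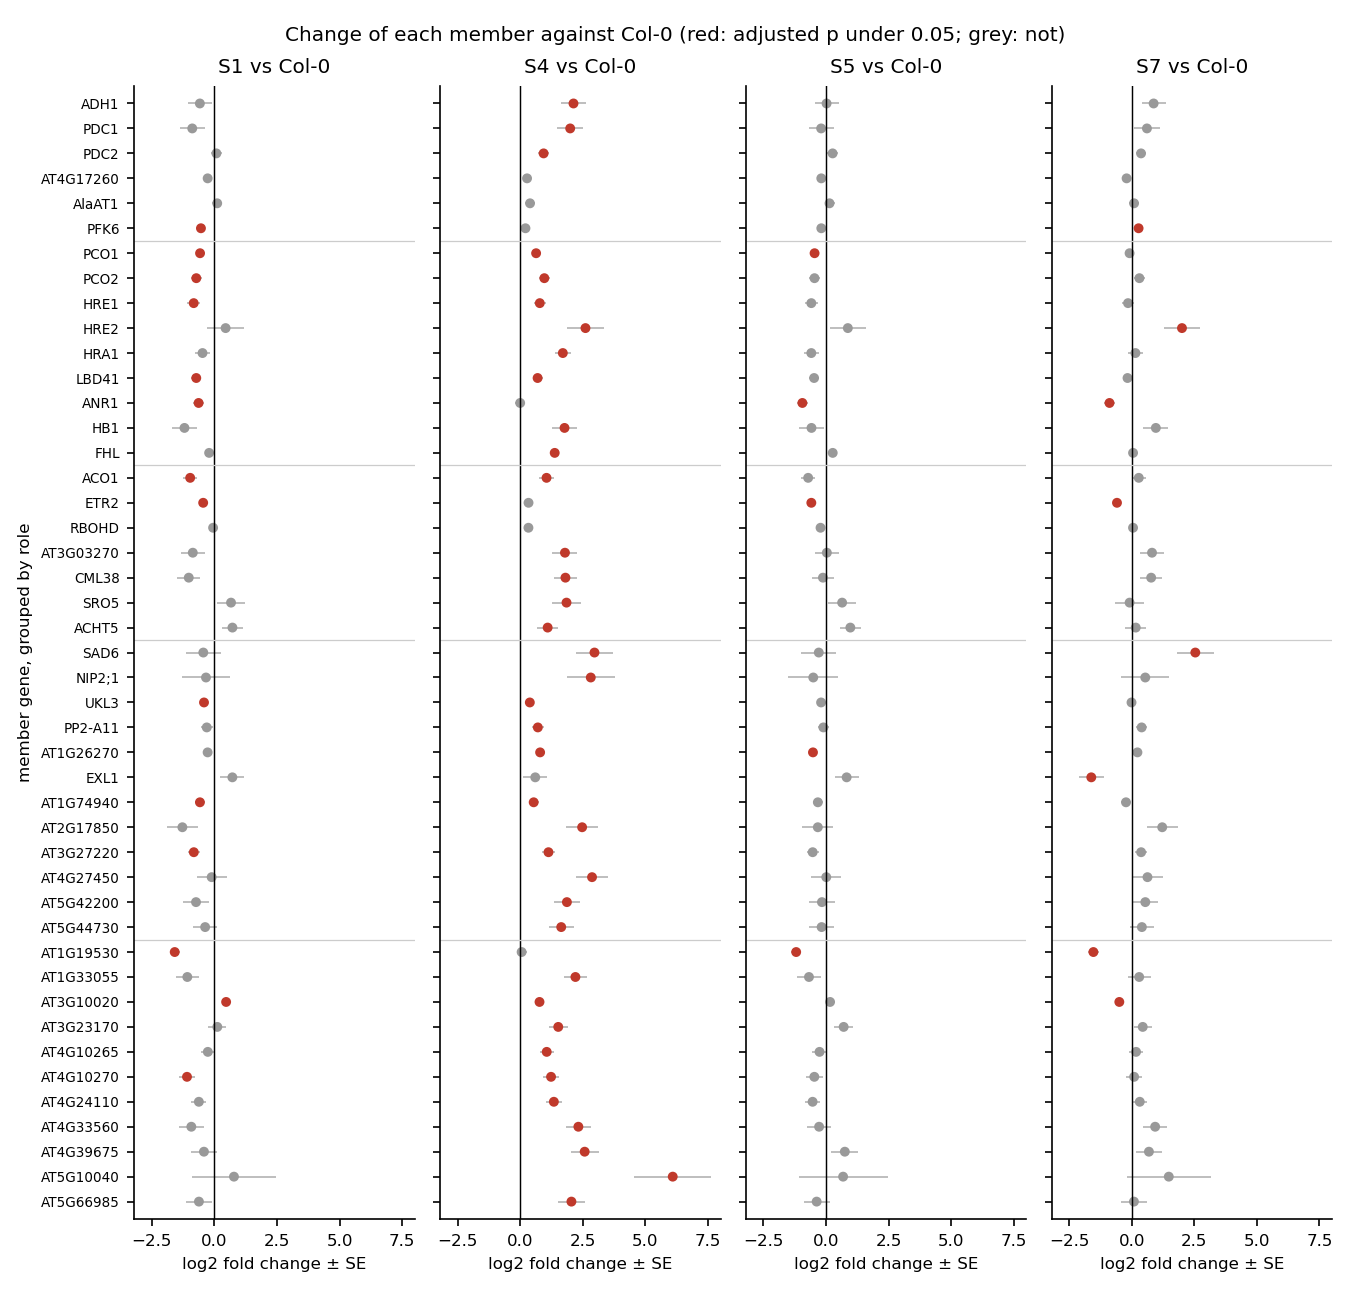
Log2 fold change against Col-0 ± SE of each member in S1, S4, S5 and S7 (red for adjusted p under 0.05, grey otherwise; edgeR, 3 libraries per genotype). In S4, 37 members are red and to the right of 0; in S1, 13 of 14 red points lie to the left; in S5 the 5 red points lie to the left, and in S7 3 lie to the right and 5 to the left.

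The group of other enzymes and transporters held *SAD6* and *NIP2;1*. *SAD6* was at 78.2, 80.2 and 78.6 CPM in S1, 169, 165 and 457 in S2, 857, 839 and 825 in S4, 58.7, 64.5 and 142 in S5, 845, 889 and 144 in S7, 343, 320.1 and 989.8 in S8. It was at 231, 229.7 and 1582 CPM in *tt19-8*, against 141, 141 and 40.2 CPM in Col-0. S4 and the first pair of S7 replicates were high, S7 replicate 3 was not, and Col-0 replicate 3 lay far below the other Col-0 libraries. *SAD6* rose by 2.97 ± 0.74 (adjusted p = 0.00299) in S4 and by 2.54 ± 0.73 (adjusted p = 0.00778) in S7. *NIP2;1*, an aquaporin of the NIP family known to carry lactic acid, was at 4.64, 3.95 and 4.67 CPM in S1, 4.13, 4.45 and 26.5 in S2, 39.5, 39.4 and 39.4 in S4, 3.07, 3.50 and 5.32 in S5, 11.8, 9.25 and 3.86 in S7, 11, 8.05 and 88.6 in S8, 7.41, 7.0 and 121 in *tt19-8* and 6.90, 6.59 and 3.17 in Col-0. It rose in S4 by 2.82 ± 0.96 (adjusted p = 0.0225), and the call was lost without any of the Col-0 libraries (adjusted p from 0.0515 to 0.0819). For *NIP2;1*, 61.9% of the exonic length overlaps neighbouring genes and a stretch of 210 bases is 98.1% identical to AT2G29870, so that its counts are uncertain.

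AT4G27450 was at 165, 169 and 167 CPM in S1, 196, 197 and 779.9 in S2, 1313, 1329 and 1313 in S4, 121, 130.1 and 296 in S5, 343, 372 and 123 in S7, 383, 375 and 1202 in S8, 422, 427 and 1806 in *tt19-8* and 234, 214 and 93.5 in Col-0. AT2G17850, a rhodanese-domain protein, was at 18.6, 21.4 and 23.0 CPM in S1, 61.1, 55.9 and 177 in S2, 265, 301 and 283 in S4, 29.1, 30.6 and 62.4 in S5, 136, 182 and 39.2 in S7, 86.1, 118 and 306 in S8, 95.3, 95.8 and 455 in *tt19-8* and 70.6, 57.0 and 25.0 in Col-0. For both genes the S4 values lay close together and above every Col-0, S1, S5 and S7 value. AT4G27450 rose in S4 by 2.87 ± 0.64 (adjusted p = 0.00126) and AT2G17850 by 2.47 ± 0.64 (adjusted p = 0.00381). AT2G17850 in S1 was at -1.28 ± 0.63 (adjusted p = 0.115) although all S1 libraries lay below all Col-0 libraries.

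In the same group, the RING protein gene AT5G42200, the haloacid dehalogenase gene AT5G44730, the kelch-repeat gene AT3G27220 and the lipid kinase gene AT1G26270 rose in S4 by 1.87 ± 0.51, 1.64 ± 0.50, 1.13 ± 0.24 and 0.80 ± 0.17 (adjusted p = 0.00594, 0.0111, 0.000877 and 0.000649). *UKL3* (a uridine kinase), *PP2-A11* (a phloem lectin) and AT1G74940 rose less, by 0.39 ± 0.12, 0.71 ± 0.23 and 0.54 ± 0.20 (adjusted p = 0.0162, 0.0178 and 0.0355). These calls were lost without Col-0 replicate 3 (adjusted p = 0.061, 0.0785 and 0.176); that of *UKL3* was also lost without S4 replicate 3 (0.0506), and that of AT1G74940 without any S4 library or Col-0 replicate 1 (0.0528 to 0.0856). AT3G27220, whose first transcribed bases hold the element shown above, fell by 0.82 in S1 (adjusted p = 0.0109, or 0.0598 without Col-0 replicate 1).

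*EXL1*, an EXORDIUM-like gene also known from carbon starvation, did not follow the rest. It was at 47.6, 51.3 and 53.7 CPM in S1, 16.9, 14.5 and 38.9 in S2, 50.1, 42.4 and 48.5 in S4, 76.4, 71.6 and 16.6 in S5, 12.4, 12.6 and 5.92 in S7, 98.6, 101 and 167 in S8, 14.7, 13.4 and 48.9 in *tt19-8* and 32.6, 35.7 and 24.5 in Col-0. S8 was highest, S7 lowest, and S5 replicate 3 fell well below S5 replicates 1 and 2. *EXL1* fell by 1.61 in S7 (adjusted p = 0.0138; -1.31 and 0.0694 without S7 replicate 3), and was at 0.60 ± 0.48 (adjusted p = 0.323) in S4.

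Among proteins without an assigned role, AT5G10040 had the largest change of all members. It was at 0.999, 1.09 and 1.71 CPM in S1, 0.915, 0.998 and 16.9 in S2, 50.9, 48.8 and 49.3 in S4, 0.497, 0.384 and 2.70 in S5, 3.17, 3.31 and 0.268 in S7, 3.98, 4.08 and 70.1 in S8. It was at 2.64, 2.62 and 83.4 CPM in *tt19-8*, against 0.630, 1.38 and 0.122 CPM in Col-0. All S4 libraries lay between 48.8 and 50.9 CPM, and outside S4 only replicate 3 of *tt19-8*, S8 and S2 passed 4.08 CPM. The log2 fold change in S4 was 6.09 ± 1.54 (adjusted p = 0.00325); its SE was the largest among the members, and Col-0 replicate 3 held 5 counts.

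AT4G39675 was at 29.1, 31.0 and 29.3 CPM in S1, 46.0, 47.2 and 147 in S2, 224, 243 and 246 in S4, 50.6, 55.3 and 96.0 in S5, 75.1, 91.0 and 27.6 in S7, 81.3, 107 and 227 in S8, 94.1, 98.1 and 339 in *tt19-8* and 50.4, 50.1 and 18.9 in Col-0. AT4G33560 was at 37.5, 33.7 and 31.3 CPM in S1, 105, 91.5 and 174 in S2, 379, 299.7 and 294 in S4, 42.5, 41.8 and 76.5 in S5, 162, 165 and 46.0 in S7, 164, 153 and 308 in S8, 90.2, 88.4 and 366 in *tt19-8* and 88.8, 69.9 and 35.4 in Col-0. AT1G33055 was at 18.4, 13.9 and 17.0 CPM in S1, 34.9, 33.3 and 76.3 in S2, 148, 166 and 169 in S4, 16.7, 18.6 and 30.1 in S5, 59.2, 51.8 and 18.4 in S7, 39.2, 59.4 and 111 in S8, 51.1, 57.3 and 173 in *tt19-8* and 38.6, 43.7 and 21.9 in Col-0. In each of them S4 lay above every Col-0, S1, S2, S5 and S7 library, and S1 lay below every Col-0 library for AT1G33055. They rose in S4 by 2.58 ± 0.56, 2.32 ± 0.51 and 2.21 ± 0.48 (adjusted p = 0.000915, 0.00105 and 0.000911).

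Of the remaining members without a role, AT5G66985, AT3G23170, AT4G24110, AT4G10270, AT4G10265 and AT3G10020 rose in S4, by 2.05, 1.52, 1.35, 1.23, 1.06 and 0.77 on the log2 scale (adjusted p at most 0.00514). AT4G10270 overlaps neighbouring genes over 97.1% of its exonic length, and its counts are uncertain. AT1G19530 was at 0.06 in S4 (adjusted p = 0.838), and at -0.22 without Col-0 replicate 3. In the other 3 lines it fell by 1.59 in S1, fell by 1.19 in S5 and fell by 1.53 in S7 (adjusted p = 4.77e-06, 0.000249 and 6.57e-06). AT3G10020 rose in S1 too, by 0.47 ± 0.10 (adjusted p = 0.00115), and fell by 0.49 in S7 (adjusted p = 0.000625).

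S1 was the line in which members were lowest. Of 45 members, 13 were called lower and 1 higher against Col-0, where 36.4% of all genes were called, 4023 lower and 4023 higher of 22089. The median log2 fold change over the members was -0.48. All S1 libraries lay below all Col-0 libraries for 25 members, against 29.2% of all genes, and above for 6, against 28.5%. Beside the genes already named, *PFK6* fell by 0.54, *UKL3* fell by 0.42, AT1G74940 fell by 0.58 and AT4G10270 fell by 1.10 (adjusted p = 0.000353, 0.0126, 0.0302 and 0.0146). The calls of *UKL3* (0.0689 without S1 replicate 1), AT4G10270 (0.0531 without S1 replicate 1, 0.0862 without Col-0 replicate 1) and AT1G74940 (0.0611 to 0.134 without any S1 library, Col-0 replicate 1 or Col-0 replicate 2) depended on 1 library. The 14 calls became 7 without Col-0 replicate 1, 9 without Col-0 replicate 2 or S1 replicate 1, and 17 without Col-0 replicate 3. *ADH1* and *PDC1* in S1 were at -0.58 ± 0.48 (adjusted p = 0.364) and -0.89 ± 0.50 (adjusted p = 0.179), and did not pass the test there. With replicate 3 of *tt19-8*, S2 and S8 left out of the fit, 26 members were called lower in S1 and 2 higher, beside 43.6% of all genes; the 26 included *ADH1*, *PDC1*, *HB1* and AT2G17850 (adjusted p of *ADH1* = 0.0477).

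In S5, 5 members were called lower and 0 higher, where 25.2% of all genes were called and 12.2% called lower; the median was -0.22. The 5 were *PCO1*, *ANR1*, *ETR2*, AT1G19530 and AT1G26270. AT1G26270 fell by 0.52 (adjusted p = 0.0252; 0.0725 to 0.0939 without S5 replicate 1, S5 replicate 2, Col-0 replicate 1 or Col-0 replicate 2). The count was 3 without S5 replicate 2, Col-0 replicate 1 or Col-0 replicate 2 and 8 without Col-0 replicate 3. All S5 libraries lay below all Col-0 libraries for 8 members and above for 8, against 21.1% and 21.2% of all genes. *ADH1* in S5 was at 0.03 ± 0.48 (adjusted p = 0.978). Without replicate 3 of *tt19-8*, S2 and S8, 12 members were called lower and 4 higher (*PDC2*, *SRO5*, *ACHT5* and AT3G23170), beside 32.9% of all genes.

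In S7, 3 members were called higher (*PFK6*, *HRE2* and *SAD6*) and 5 lower (*ANR1*, *ETR2*, *EXL1*, AT1G19530 and AT3G10020), where 42.7% of all genes were called, 22.3% higher and 20.4% lower. *PFK6* rose by 0.28 ± 0.10 (adjusted p = 0.0347), a call lost without S7 replicates 1 or 2 or any Col-0 library (adjusted p from 0.0553 to 0.134). The median over the members was 0.28. All S7 libraries lay above all Col-0 libraries for 4 members and below for 5, against 26.7% and 24.7% of all genes. Replicate 3 of S7 went its own way, so that 12 members were called without it. *ADH1* in S7 was at 0.88 ± 0.48 (adjusted p = 0.151), from libraries of 1621, 1865 and 722 CPM against 920.4, 848 and 523 CPM in Col-0. Without replicate 3 of *tt19-8*, S2 and S8, 16 members were called higher and 6 lower beside 48.1% of all genes. The 16 included *ADH1* (0.87, adjusted p = 0.00392), *PDC1* (0.60, 0.0194), *PDC2* (0.36, 0.000217) and *HB1* (0.95, 0.0192). Fold changes hardly moved in that fit, with a median of 0.27, while the SE of *ADH1* fell from 0.48 to 0.23. The libraries left out led to the list. They enter the S1, S4, S5 and S7 contrasts through the shared estimate of the spread and the scaling. Counts from that fit are therefore a description.

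Since S4 alone of these lines had most members higher, S4 was set against S1, S5 and S7 directly, a comparison added after the values against Col-0 had been seen. Against S1, 40 members were higher in S4 and 0 lower, where 42.2% of all genes were called and 20% higher; the median was 1.69. Against S5, 39 were higher and 0 lower, where 41.5% of all genes were called and 19.3% higher; the median was 1.42. Against S7, 33 were higher and 0 lower, where 43.8% of all genes were called and 21% higher; the median was 0.98. Without S7 replicate 3 the last count was 19. *AlaAT1* and *ACHT5* were called in none of the 3 comparisons, and *HRE2*, *HB1*, *SAD6*, *NIP2;1* and AT2G17850 were among the genes not called against S7. For each of these 5, S7 replicates 1 and 2 lay above S7 replicate 3.

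Replicate 3 stood above replicates 1 and 2 in some genotypes, below them in others and level with them in S1 and S4. The median log2 difference over the members was 1.26 in *tt19-8*, 0.65 in S2, 0.64 in S8, 0.31 in S5, 0.01 in S1, -0.01 in S4, -0.71 in S7 and -0.56 in Col-0. In *tt19-8* replicate 3, 44 members lay above the mean of replicates 1 and 2 and 27 by more than 2-fold, a step that 0.928% of all genes took. In S2 43 lay above and 15 passed 2-fold (1.91% of all genes), and in S8 44 lay above and 17 passed 2-fold (0.693% of all genes). In S7 replicate 3, 41 members lay below and 16 by more than 2-fold (0.598% of all genes), and in Col-0 42 lay below and 9 by more than 2-fold (0.244% of all genes). In S5 replicate 3, 33 lay above and 12 below, 4 of them up and 1 down by more than 2-fold (0.738% and 1.59% of all genes). In S1 and S4, 0 members moved past 2-fold in either direction, as against 0.0226% of all genes up and 0.0317% down in S1, and 0.0362% up and 0.0453% down in S4. Since replicate 3 of *tt19-8*, S2 and S8 is where the list came from, the values of these 3 genotypes are a description alone.

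**Figure D4:**
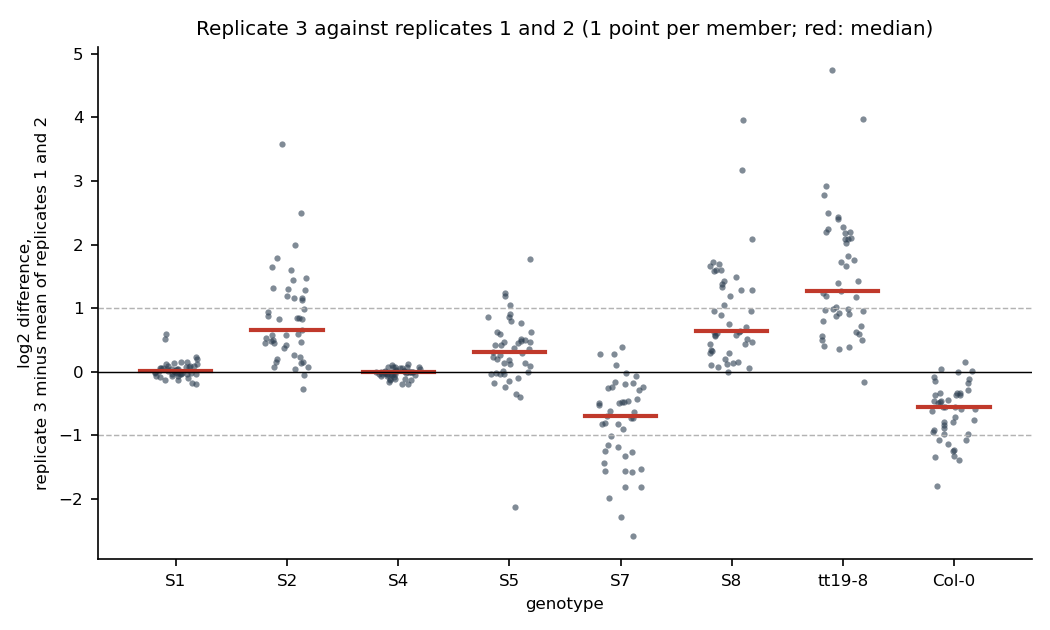
Log2 difference between replicate 3 and the mean of replicates 1 and 2 for each of the 45 members (points) in each genotype, with the median in red and dashed lines at a 2-fold difference. Points lie mostly above 0 in *tt19-8*, S8 and S2, mostly below 0 in S7 and Col-0, and around 0 in S1 and S4.

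The spread of a member between the replicates of a genotype followed from this. The median SD of log2 values over the members was 0.05 in S4, 0.06 in S1, 0.21 in S5, 0.37 in S8, 0.44 in S7, 0.48 in S2, 0.73 in *tt19-8* and 0.34 in Col-0. Over all genes it was 0.08 in S4 and S1, 0.13 in S5, 0.14 in S8, 0.15 in S7 and *tt19-8*, 0.17 in S2 and 0.11 in Col-0. The median SD was thus lower over the members than over all genes in S4 and S1 and higher in the other 6 genotypes. Genes were not matched for expression level in this comparison, and low counts widen log2 values. Values measured beside replicate 3 differed by genotype. In S2 replicate 3, seed storage markers summed to 3126 CPM beside 868 and 923 CPM in replicates 1 and 2, root markers to 769 beside 422 and 414, green-tissue markers to 176 beside 242 and 233 and the heat list to 290 beside 212 and 214. In S8 replicate 3 these sums were 1213 beside 1063 and 908, 731 beside 842 and 801, 211 beside 145 and 134, and 249 beside 481 and 390 CPM. In *tt19-8* replicate 3 they were 644 beside 751 and 689, 837 beside 783 and 776, 199 beside 173 and 168, and 179 beside 248 and 239 CPM. In Col-0 replicate 3, seed storage and root sums were 109 beside 46.1 and 54.1, and 506 beside 589 and 582 CPM. Its green-tissue and heat sums were 206 beside 209 and 185, and 233 beside 159 and 169 CPM. In S7 replicate 3, seed storage and root sums were 575 beside 323 and 312, and 375 beside 305 and 288 CPM. Its green-tissue and heat sums were 310 beside 384 and 413, and 226 beside 173 and 180 CPM. In S5 replicate 3, seed storage and root sums were 554 beside 1363 and 1461, and 796 beside 786 and 776 CPM. Its green-tissue and heat sums were 185 beside 145 and 164, and 318 beside 375 and 400 CPM. Root, green-tissue and heat sums moved in different directions in S2 and S8. The median log2 level of the root markers against Col-0 was lower in replicate 3 of both lines. It was -0.44 beside 0.06 and -0.08 in S2, and -0.78 beside 0.25 and -0.10 in S8. The part of any of these in the members' values was not tested, and the labels give no date, culture or batch for replicate 3.

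Contrasts that hold *tt19-8*, S2 or S8 use the libraries that led to the list, so their values describe the members and their counts of calls are no test of them. In *tt19-8* against Col-0 the median log2 fold change over the members was 0.68 with all libraries and 0.08 without replicate 3 of *tt19-8*, S2 and S8. It was 0.93 and 0.60 in S8 against Col-0, 0.36 and 0.06 in S2 against Col-0, and 0.43 and 1.24 in S4 against *tt19-8*. In *tt19-8* against Col-0, 14 members passed the threshold with all libraries, all higher (13.6% of all genes), 5 without the 3 libraries, all higher (13.4%), and 1 without *tt19-8* replicate 3 or Col-0 replicate 3 alone. In S8 against Col-0, 23 were higher and 1 lower with all libraries (29.2% of all genes) and 23 higher and 0 lower without the 3 libraries (28%); leaving out S8 replicate 3 alone gave 6 called, and Col-0 replicate 3 alone 8. In S2 against Col-0, 1 was higher and 1 lower (27.3%), and without the 3 libraries 1 higher and 4 lower (24.1%). For S4 against *tt19-8*, 3 members were higher and 0 lower with all libraries (18.7%), and 41 higher and 0 lower without them (31.1%). For S1 against *tt19-8*, 0 were higher and 36 lower (34%), and without them 2 higher and 28 lower (33.9%). For S5 against *tt19-8* the counts were 0 higher and 26 lower (24.7%), and 4 higher and 13 lower without them (25.5%). For S7 against *tt19-8* they were 1 higher and 15 lower (37.3%), and 10 higher and 5 lower without them (42.5%). For S2 they were 0 higher and 3 lower (19.1%), and 1 higher and 4 lower (20.8%), and for S8 3 higher and 2 lower (25.6%), and 18 higher and 1 lower (25.5%). The contrasts against *tt19-8* share its libraries, as those against Col-0 share its own.

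Likeness to the mean profile of the members, as Pearson's r of log2 CPM over the 24 libraries, was at least 0.9 for 27 of the 45 members, each of which is part of that mean. It was highest for AT5G66985 (0.99) and under 0.7 for 5 members, *ANR1* (0.68), AT1G19530 (0.61), *ACHT5* (0.37), *EXL1* (0.35) and AT3G10020 (0.19). Outside the list, the 5 genes of highest r were *ASP2* (0.98), AT3G27770 (0.98), AT2G17845 (0.97), *ATR2* (0.97) and *SUS4* (0.96). *ASP2*, a cytosolic aspartate aminotransferase, was at 338, 335 and 328 CPM in S1, 601, 590.4 and 1039.6 in S2, 1479, 1389 and 1437 in S4, 425, 441 and 530.0 in S5, 702, 748 and 308 in S7, 791, 799 and 1454 in S8, 531, 502 and 1678 in *tt19-8* and 499.9, 468 and 337 in Col-0. *ASP2* was chosen by its r over these same libraries. Its high values in S4 and in replicate 3 of *tt19-8*, S8 and S2 follow from that choice. *SUS1*, the other sucrose synthase gene known from low oxygen, ranked 7 with an r of 0.95. These correlations are a description over libraries that share genotypes and replicate effects.

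Other genes of the pathway were taken from lists chosen with earlier results of these data known. Of 13 genes of constitutive oxygen sensing and the N-degron pathway, 12 could be tested. In S4, 2 were higher against Col-0, the group VII factor *RAP2.3* by 1.35 ± 0.13 and the cysteine oxidase *PCO5* by 0.37 ± 0.12 (adjusted p = 8.13e-08 and 0.0133), and 2 were lower. The group VII factor *RAP2.12* fell by 0.59 and the cysteine oxidase *PCO3* fell by 0.46 (adjusted p = 0.000103 and 0.0236). The counts were 4 higher and 4 lower in S1, 0 and 2 in S5, and 2 and 1 in S7. Of all genes, 36.4% were called against Col-0 in S1, 42.9% in S4, 25.2% in S5 and 42.7% in S7. Their median log2 fold change in S4 was 0.02, beside 1.23 over the members. *RAP2.2*, *PCO4*, *ATE1*, *ATE2*, *PRT6*, *ACBP1*, *ACBP2* and *VRN2* did not pass the test in S4, and *ZPR2* was too low to be tested.

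Relatives of the members showed the same mix. Of 15 relatives in fermentation and glycolysis, 4 were higher and 3 lower in S4 (higher: the phosphofructokinases *PFK2* and *PFK3*, by 1.28 and 0.76, the alternative oxidase *AOX1A*, by 0.68, and *AlaAT2*, by 0.51). The counts were 5 higher and 3 lower in S1, 7 and 1 in S5, and 4 and 4 in S7. The shares over all genes were 36.4% in S1, 42.9% in S4, 25.2% in S5 and 42.7% in S7, in either direction. Of 11 relatives in ethylene, reactive oxygen and calcium signalling, 3 were higher and 5 lower in S4, 3 and 2 in S1, 2 and 3 in S5, and 0 and 3 in S7. *LBD40*, the relative of *LBD41*, rose in S4 by 1.51 (adjusted p = 1.28e-06), while the ethylene receptor *ERS1* fell by 0.66 (1.71e-05). *SUS1* and *SUS4* rose in S4 by 1.21 and 2.55 (adjusted p = 0.0201 and 0.0421), and neither passed the test in S1, S5 or S7.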

How the data were processed

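Total RNA of seedlings had been sequenced by the authors as 100-base paired-end reads, checked with FastQC 0.11.5, aligned to TAIR10 with HISAT2 and counted per gene with FeatureCounts. The deposited values are raw counts per gene and library, whole numbers without normalization. Whether counting used strand, and how reads of overlapping or near-identical genes were treated, is not given in the sources used here.

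Each library took its genotype and replicate number from its label. Members and gene lists were chosen with earlier results of these data known. Of 33331 identifiers, 28932 matched a RefSeq locus; names, exon lengths, coordinates and promoters came from RefSeq TAIR10.1, a release of the TAIR10 assembly. Counts were tested with edgeR 4.0.16 in R 4.3.3 (filterByExpr, trimmed mean of M-values, quasi-likelihood test, two-sided, 1 mean per genotype over all 24 libraries). P-values were adjusted by Benjamini-Hochberg over the 22089 genes tested, with a call at an adjusted p under 0.05. The common biological coefficient of variation was 14.2%. Fits for 13 contrasts were planned, and 3 of S4 against S1, S5 and S7 were added after values had been seen. CPM were scaled with the same factors, and log2 values carried an offset of 0.5 CPM. Alternatives were DESeq2 1.42.0, its size factors, no filter, the replicate number as a block, only the 6 libraries compared, an adjusted p under 0.01, and libraries left out. Tables and plots used Python 3.11.15, numpy 2.4.6, pandas 2.3.3 and matplotlib 3.10.9, and the fits were tested on simulated data.

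Values in every library were given for *ADH1*, *PDC1*, *HB1*, *PCO1*, *PCO2*, *HRE1*, *HRE2*, *HRA1*, *LBD41*, *SAD6* and AT5G10040, and, beyond these, for up to 10 members with the largest change among those called in S1, S4, S5 or S7 against Col-0. Same-numbered replicates were compared by the correlation of their deviations from the genotype means. Every pair was over 0.1 only for S2 with *tt19-8* (0.21, 0.21 and 0.33) and S8 with *tt19-8* (0.18, 0.20 and 0.45). For S7 with *tt19-8* the values were -0.19, -0.23 and -0.39. These correlations do not show that libraries of the same number were paired. The labels do not say what a replicate number marks. The value of 1 gene of the pathway lists is not reported here.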

Additional observations from a re-analysis of the deposited data

Results flagged for a closer look

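Changes against Col-0 differed between lines for many members, in comparisons added after the values against Col-0 had been seen. Between S4 and S1, the level of 40 of the 45 members differed in edgeR's quasi-likelihood test, so that the changes of these lines against the same Col-0 libraries differed as well. Between S4 and S5 the number was 39, and between S4 and S7 it was 33, or 19 without S7 replicate 3. Of all genes, 42.2% were called between S4 and S1, 41.5% between S4 and S5 and 43.8% between S4 and S7. All of these members were higher in S4.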

How the results depend on the processing

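Counts of called members for S4 against Col-0, S1 and S5 stayed within 1.5 times of their value in every alternative run, and S4 against Col-0 ranged from 29 to 43 members. Of its 37 called members, 31 were called in every alternative at the same threshold that gave them an adjusted p, and 6 lost the call at least once (*UKL3*, *PP2-A11*, *HRE1*, AT1G74940, *NIP2;1* and *ACHT5*); DESeq2 gave *SAD6*, *NIP2;1* and AT5G10040 no adjusted p.

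Under the replicate block, 7 members were called in *tt19-8* against Col-0 (14 without it) and 8 in S7 against *tt19-8* (16 without it). No other count moved by more than 1.5 times. S2 and S8 against *tt19-8*, where every same-numbered pair passed the threshold of the correlation check, gave 3 and 6. With DESeq2, S8 against *tt19-8* gave 8 (5 with edgeR). With only the 6 libraries compared, counts were 4 (*tt19-8* against Col-0), 1, 12, 6 and 3 (S2, S5, S7 and S8 against *tt19-8*), and 32 and 11 (S1 and S5 against Col-0). At an adjusted p under 0.01 they were 1 (*tt19-8* against Col-0), 14, 6 and 3 (S5, S7 and S8 against *tt19-8*), 5, 1, 3, 5 and 7 (S1, S2, S5, S7 and S8 against Col-0) and 19 (S4 against S7). Without replicate 3 of *tt19-8*, S2 and S8 they were 5 (*tt19-8* against Col-0), 5, 41, 17 and 19 (S2, S4, S5 and S8 against *tt19-8*), and 28, 5, 16 and 22 (S1, S2, S5 and S7 against Col-0), 16 of the 22 in S7 being higher. With an offset of 2 CPM, the median replicate-3 difference of S5 was 0.27 in place of 0.31.

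Leaving out 1 library at a time gave 1 to 21 members for *tt19-8* against Col-0. Against *tt19-8* the ranges were 22 to 37 (S1), 2 to 11 (S2), 1 to 36 (S4), 10 to 33 (S5), 6 to 21 (S7) and 3 to 24 (S8). Against Col-0 they were 7 to 17 (S1), 1 to 2 (S2), 31 to 35 (S4), 3 to 8 (S5), 6 to 12 (S7) and 6 to 25 (S8), and for S4 they were 37 to 40 against S1, 38 to 39 against S5 and 19 to 31 against S7. AT1G19530 in S4 against Col-0, at 0.06, was at -0.22 without Col-0 replicate 3 and otherwise up to 0.23 with 1 library left out. *ANR1* in S4 against Col-0, at -0.00027, was at 0.014 with DESeq2, 0.013 with its size factors, 0.0092 without a filter, 0.0043 with 6 libraries, 0.0032 without replicate 3 of *tt19-8*, S2 and S8, and between -0.14 and 0.14 with 1 library left out; the cause of these changes was not tested.

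A value that missed the threshold does not show that a member was unchanged. The lowest count of a member in a library was 5. S4 is 1 line, and its *RDR6* change and any other mutation or culture effect of that line cannot be told apart.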

Other observations

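Gene groups of other stresses were measured beside the members. Of 7 genes of heat and unfolded cytosolic protein, 7 were higher against Col-0 in S1, 4 in S4, 4 in S5 and 3 in S7, and 0 were lower in any of the 4 lines (edgeR's quasi-likelihood test). Their median log2 fold change was 1.82 in S1, 0.53 in S4, 1.08 in S5 and 0.23 in S7. The list summed to 621 to 647 CPM in S1, against 159 to 233 CPM in Col-0. Of 7 genes of sugar starvation, 3 were higher and 2 lower in S1, and 1 higher and 3 lower in S4. In S5, 3 were higher and 0 lower, and in S7 0 were higher and 4 lower. Beside these lists, 36.4% of all genes were called in either direction in S1, 42.9% in S4, 25.2% in S5 and 42.7% in S7.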
